A study of Mus musculus with 9 samples.

Results

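Integrins are the receptors by which cells hold on to the matrix around them, and focal adhesion proteins tie the inner side of these receptors to the actin cytoskeleton. The set described here held 41 mouse genes, 23 of them integrin chains and 18 intracellular adhesion proteins. It was chosen by gene name with earlier results of these data known. Its counts beside those of all genes are therefore a description only. Each gene was read at the probe set annotated to that gene alone, the brightest one if there were several. All 23 integrin chains and 16 of the intracellular proteins were measured, so that 39 of the 18820 genes tested belong to the set. Ptk2, the focal adhesion kinase FAK, had no probe set in the annotation used, and Actn4, a non-muscle alpha-actinin, had only 1 that it shared with a second gene, so neither is analysed here.

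The arrays measured RNA of the right ventricle (RV) of 9 female C57BL/6 mice, with 1 Affymetrix mouse gene 1.1 ST array per mouse. MCT + NI mice (numbers 615, 617 and 619) received monocrotaline (MCT), a plant alkaloid that injures the vessels of the lung, together with the nutritional intervention (NI), a diet enriched in fish oil, oligosaccharides, leucine and protein. MCT mice (640, 641 and 644) received the same injections on the standard AIN-93M diet. Sham mice (620, 624 and 625) received saline on that standard diet. MCT was injected under the skin every week at 600 mg/kg for 8 weeks, beginning at 10 weeks of age by the labels. The mice arrived at 8 weeks of age. In all groups the diet began before the first injection, by 2 weeks in the labels and by 1 week in the methods. No group of sham mice on the NI diet was measured, so a diet effect without MCT cannot be read here. According to the methods, the 3 mice of each group were picked from larger groups to be matched for disease severity.

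An integrin is a pair of an alpha and a beta chain, and the alpha chain largely decides whether it binds collagen, laminin, fibronectin and related proteins that carry the RGD motif, or ligands on other cells. Talins and kindlins bind the tail of the beta chain and switch the receptor on. Vinculin, alpha-actinin and filamin then link it to actin, while paxillin, Hic-5 and the complex of integrin-linked kinase, parvin and PINCH act as scaffolds for signalling. In heart muscle such contacts lie mainly at the costameres along the cell surface, and fibroblasts, vessel cells and leukocytes each carry integrins of their own.

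Values are log2 intensities as deposited, and a log2 difference of 1 is a doubling. A gene is called when limma's p-value, adjusted by Benjamini-Hochberg over the 18820 genes, is under 0.05, with 1 estimate of spread shared by the 9 mice. Within the injected groups the mice were unlike each other in atrial transcripts, which bears on every comparison. The score of 6 atrial markers (the mean of their centred log2 values) was 0.948 in MCT + NI mouse 615 and -2.203 and -2.968 in MCT + NI mice 617 and 619. MCT mouse 644 scored 2.478, whereas MCT mice 640 and 641 scored -3.082 and -2.707. The sham mice scored 1.96 to 2.836. Myl2, the regulatory light chain of ventricular myosin, was high throughout, with 12.75, 12.76 and 12.73 in MCT + NI mice and 12.75, 12.73 and 12.70 in MCT mice, against 12.73, 12.73 and 12.67 in sham mice. Of 6 cardiomyocyte markers, none was called with MCT + NI and 1 with MCT, where Ryr2, the calcium release channel, fell by 0.17 (adjusted p = 0.0234). Over all genes, 6.26% were called in each of these comparisons with sham.

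In MCT mice 16 of the 39 measured members rose against sham mice and none fell, while 4.65% of all genes tested were called higher and 1.61% lower. Of the integrin chains 9 of 23 rose, and of the intracellular proteins 7 of 16. In MCT + NI mice 13 members rose and 1 fell against sham mice, with 4.52% of all genes called higher and 1.75% lower. Between MCT + NI and MCT mice no member was called, as no gene of the array was, and 4 members passed limma's unadjusted p of 0.05, each with the lower value on the NI diet. At that unadjusted threshold 1.3% of all genes were lower and 1.59% higher. Against sham, 23 of the 39 members passed the unadjusted threshold in MCT + NI mice (19.5% of all genes) and 26 in MCT mice (19.7%).

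The median log2 difference of the 39 members was 0.30 between MCT + NI and sham mice and 0.31 between MCT and sham mice, against a median of -0.02 over all genes in either comparison. Between MCT + NI and MCT mice the median of the members was -0.04, and that of all genes was -0.00. The groups did not overlap for 22 members higher and 2 lower in MCT + NI than in sham mice, and for 22 higher and 1 lower in MCT than in sham mice. Of all genes, 10.7% lay wholly higher and 10.3% wholly lower in MCT + NI than in sham mice, and 11.7% and 10.2% in MCT than in sham mice. Both comparisons use the same sham arrays, so their calls are not independent of each other.

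**Figure D1:**
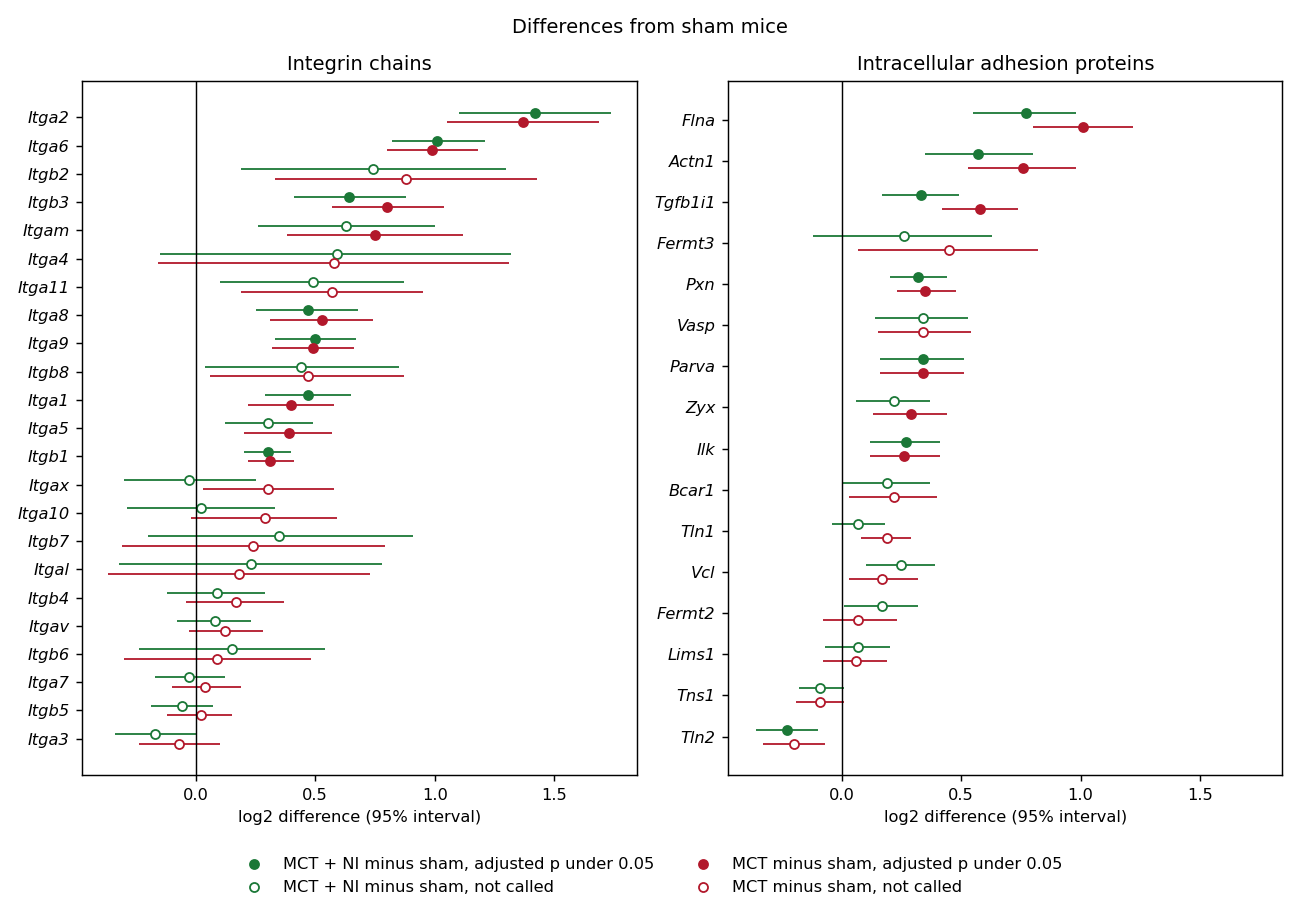
Log2 difference from sham mice with its 95% interval for each measured member, MCT + NI minus sham in green and MCT minus sham in red, with filled points for an adjusted p under 0.05. Itga2 and Itga6 lie farthest to the right among the integrin chains and Flna among the intracellular proteins, and Tln2 is the one filled point left of 0.

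Among the chains that bind collagen, Itga2 and Itga1 rose. Itga2, the alpha chain of the collagen receptor best known from platelets and epithelium, had log2 intensities of 6.05, 5.62 and 5.99 in MCT + NI mice and 6.04, 5.86 and 5.62 in MCT mice, against 4.39, 4.60 and 4.42 in sham mice. The lowest injected mouse lay more than 1 log2 unit above the highest sham mouse, and the injected groups overlapped. The sham values lay below the median row of the table (4.76), so the fold starts from a dim signal. The difference from sham was 1.42 (standard error 0.14, adjusted p = 0.000644) in MCT + NI mice and 1.37 (0.14, adjusted p = 0.000695) in MCT mice, a fold of 2.67 and 2.59, and it was the largest of any member in both comparisons. Between MCT + NI and MCT mice it was 0.05 (95% interval -0.27 to 0.36).

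Itga1, whose chain prefers the collagen of basement membranes, had 8.81, 8.61 and 8.69 in MCT + NI mice and 8.72, 8.72 and 8.45 in MCT mice, against 8.24, 8.23 and 8.21 in sham mice. All 6 injected mice were above the sham mice, MCT mouse 644 least of them. The difference was 0.47 (standard error 0.08, adjusted p = 0.0088) with MCT + NI and 0.40 (0.08, adjusted p = 0.0189) with MCT. The call with MCT was lost when MCT mouse 640 or 641 or any 1 sham mouse was left out, with adjusted p up to 0.0805. Itga11, a collagen receptor chain of fibroblasts, differed by 0.49 (adjusted p = 0.15) and 0.57 (adjusted p = 0.0915), and Itga10, known from cartilage, by 0.02 and 0.29.

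Of the laminin-binding chains only Itga6 was called. Itga6, which pairs with beta 1 or beta 4 and is abundant on endothelium, had 8.58, 8.50 and 8.71 in MCT + NI mice and 8.69, 8.62 and 8.41 in MCT mice, against 7.50, 7.56 and 7.69 in sham mice. The injected mice formed 1 range well above the sham mice. The difference was 1.01 (standard error 0.085, adjusted p = 0.000315) with MCT + NI and 0.99 (0.085, adjusted p = 0.000336) with MCT, a fold of 2.02 and 1.99. Itga7, the laminin receptor chain of striated muscle, differed by -0.03 (95% interval -0.17 to 0.12) with MCT + NI and 0.04 (-0.10 to 0.19) with MCT. Itga3, a laminin receptor chain of epithelia, differed by -0.17 and -0.07, and neither was called.

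Of the RGD-binding alpha chains, Itga8 rose in both injected groups and Itga5 in MCT mice. Itga8, a chain of smooth muscle and mesenchymal cells, had 6.48, 6.16 and 6.20 in MCT + NI mice and 6.30, 6.43 and 6.28 in MCT mice, against 5.83, 5.72 and 5.89 in sham mice, with no overlap with sham. The difference was 0.47 (standard error 0.094, adjusted p = 0.0205) with MCT + NI and 0.53 (0.094, adjusted p = 0.0115) with MCT. Leaving out MCT mouse 641 gave an adjusted p of 0.0504 for MCT, and leaving out sham mouse 620 or 624 lost the call for MCT + NI (adjusted p up to 0.0776).

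Itga5, the fibronectin receptor chain, had 8.07, 7.81 and 7.80 in MCT + NI mice and 8.03, 7.89 and 8.00 in MCT mice, against 7.49, 7.64 and 7.63 in sham mice. Again all injected mice exceeded all sham mice. The difference was 0.30 (standard error 0.082, adjusted p = 0.0693) with MCT + NI and 0.39 (0.082, adjusted p = 0.0265) with MCT. The call in MCT mice was lost without MCT mouse 640 or 644 or without any 1 sham mouse (adjusted p up to 0.105). Itgav, whose chain binds vitronectin and latent TGF-beta, differed by 0.08 and 0.12 and was not called.

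Itga9, a chain found on smooth muscle, lymphatic endothelium and neutrophils, had 8.18, 7.94 and 8.07 in MCT + NI mice and 8.11, 8.11 and 7.93 in MCT mice, against 7.49, 7.61 and 7.60 in sham mice. The groups with MCT lay apart from sham by more than their own range. The difference was 0.50 (standard error 0.075, adjusted p = 0.00489) with MCT + NI and 0.49 (0.075, adjusted p = 0.00574) with MCT. With the atrial score as a covariate both calls were lost (adjusted p = 0.0752 with MCT + NI and 0.062 with MCT). Its relative Itga4, a leukocyte chain that binds VCAM-1, differed by 0.59 and 0.58 with wide intervals (-0.15 to 1.32 and -0.16 to 1.31) and was not called. MCT + NI mouse 617 (5.24) and MCT mouse 641 (5.18) lay within the sham range of 4.90 to 5.63 for Itga4.

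Of the leukocyte chains, Itgam rose in MCT mice. Itgam, which encodes CD11b of macrophages and neutrophils, had 6.02, 5.64 and 6.02 in MCT + NI mice and 6.29, 5.75 and 6.00 in MCT mice, against 5.35, 5.03 and 5.42 in sham mice. MCT + NI mouse 617 and MCT mouse 641 were the lowest of their groups but lay above the sham mice. The difference was 0.63 (standard error 0.16, adjusted p = 0.06) with MCT + NI and 0.75 (0.16, adjusted p = 0.029) with MCT. Its call was lost without MCT mouse 640 or 644 or without sham mouse 620 or 624 (adjusted p up to 0.0992). Itgb2, the common beta chain of leukocytes, differed by 0.74 (adjusted p = 0.125) and 0.88 (adjusted p = 0.0731). Itgal, the alpha chain of LFA-1, and Itgb7, a beta chain of lymphocytes, differed by 0.18 to 0.35 and were not called.

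Macrophage markers moved beside these chains. The log2 of the summed intensity of 10 macrophage and monocyte markers lay between 10.72 and 11.08 in MCT + NI mice and between 10.84 and 11.16 in MCT mice, against 10.39 to 10.68 in sham mice. In MCT mice 3 of them rose (Mertk, Lyz2 and Cd68) and Cd163, a scavenger receptor of resident macrophages, fell by 1.20. In MCT + NI mice Mertk and Lyz2 rose and Cd163 and Csf1r fell. Of all genes, 4.52% rose and 1.75% fell with MCT + NI, and 4.65% and 1.61% with MCT. None of 4 neutrophil markers was called in either comparison. Their group means lay below the median row of the table (4.76), so the lack of a call says little about neutrophils. The part of these cells in the leukocyte chains was not tested, and in bulk tissue fewer cells of a type and less RNA per cell cannot be told apart.

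Of the beta chains outside leukocytes, Itgb1 and Itgb3 rose. Itgb1, the partner of most matrix-binding alpha chains, had 10.12, 10.02 and 10.10 in MCT + NI mice and 10.13, 10.13 and 10.02 in MCT mice, against 9.83, 9.75 and 9.77 in sham mice. The shift was small but wider than the spread of each group. It came to 0.30 (standard error 0.043, adjusted p = 0.00428) with MCT + NI and 0.31 (0.043, adjusted p = 0.00332) with MCT, a fold of 1.23 and 1.24. A second and dimmer probe set of Itgb1 showed 0.17 and 0.14, neither called over all rows of the table.

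Itgb3, the beta chain shared by the platelet fibrinogen receptor and the vitronectin receptor, had 5.34, 5.18 and 5.18 in MCT + NI mice and 5.23, 5.44 and 5.51 in MCT mice, against 4.46, 4.55 and 4.75 in sham mice. No injected mouse came near the sham range, which lay below the median row of the table (4.76). The difference was 0.64 (standard error 0.1, adjusted p = 0.0069) with MCT + NI and 0.80 (0.1, adjusted p = 0.00225) with MCT. None of 4 platelet markers was called, among them Itga2b, the platelet partner of Itgb3, with differences of 0.05 and 0.23. Pf4 differed by 0.29 and 0.34 (adjusted p = 0.197 and 0.137), Ppbp by 0.14 and 0.19 and Gp9 by -0.20 and -0.12. Itga2b, Gp9 and Ppbp had group means below that median row, so the lack of a call says little about platelets. The chains Itgb4, Itgb5, Itgb6 and Itgb8 were not called and differed by -0.06 to 0.44 with MCT + NI and by 0.02 to 0.47 with MCT.

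**Figure D2:**
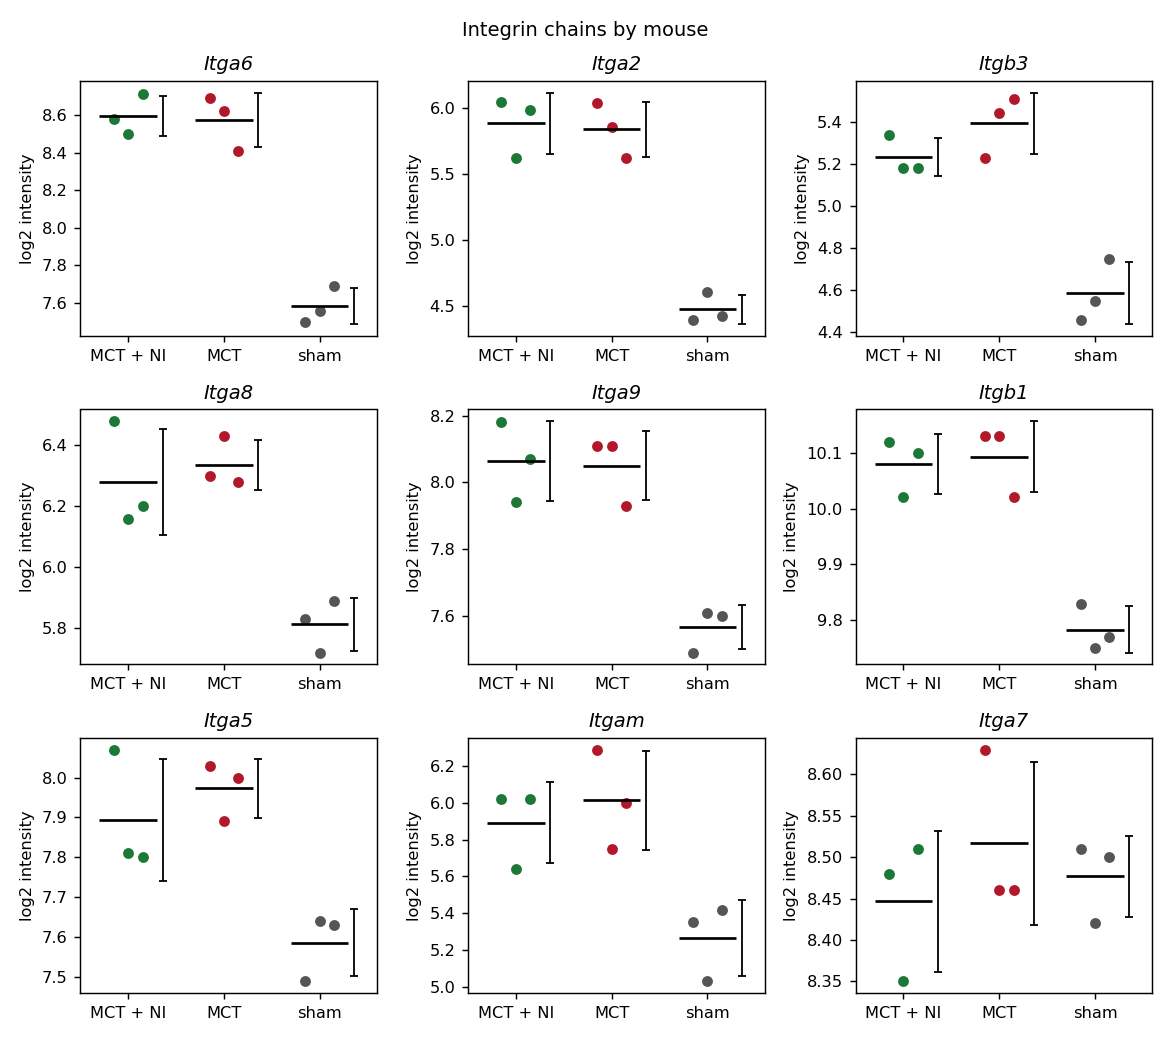
Log2 intensity of 9 integrin chains in each mouse (points), with the group mean as a line and the SD as a bar beside it (n = 3 per group), on a vertical scale that differs between panels. For Itga6, Itga2, Itgb3, Itga8, Itga9, Itgb1, Itga5 and Itgam every MCT + NI and MCT mouse lies above every sham mouse, while for Itga7 the 3 groups overlap.

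Endothelial and mural cell markers also differed between the injected and the sham mice. The summed level of 10 endothelial markers was 12.55 to 12.75 in MCT + NI mice and 12.62 to 12.72 in MCT mice, against 12.19 to 12.47 in sham mice on the log2 scale. Cdh5, VE-cadherin, rose by 0.77 (adjusted p = 0.00153) and 0.74 (adjusted p = 0.00186), and Pecam1, the junction protein CD31, by 0.71 and 0.69. Of these 10 markers 6 rose and Tek, the angiopoietin receptor, fell in MCT + NI mice (-0.62, adjusted p = 0.0348). In MCT mice 4 rose and 0 were called lower, with Tek at -0.47 (adjusted p = 0.0935). Emcn, Eng and Tie1 were called in neither group. They differed by 0.05, -0.08 and -0.08 with MCT + NI and by 0.13, -0.00 and -0.07 with MCT. Beside this list and the marker lists below, 4.52% of all genes rose and 1.75% fell with MCT + NI, and 4.65% and 1.61% with MCT. Of 9 smooth muscle and pericyte markers 6 rose in each injected group. Smtn, Pdgfrb, Rgs5, Cspg4 and Kcnj8 rose in both, Acta2 with MCT + NI and Tagln with MCT. Cnn1 went the other way without a call, by -0.45 with MCT + NI and -0.21 with MCT. For Acta2 every MCT + NI mouse exceeded every MCT mouse (0.27, unadjusted p = 0.0156 from limma, not called). Smtn (-0.06) and Cspg4 (-0.14) were the reverse, also without overlap. The summed level, in which the bright Acta2 and Rgs5 weigh most, was 12.64 to 12.83 in MCT + NI mice and 12.48 to 12.70 in MCT mice. In sham mice it was 12.08 to 12.19. Of 8 fibroblast markers 3 rose in each injected group (Col1a1, Col1a2 and Postn), with a summed level of 12.48 to 12.65 in MCT + NI mice and 12.51 to 12.76 in MCT mice, against 12.34 to 12.46 in sham mice. The others were not called. With MCT + NI and with MCT, Pdgfra differed by -0.32 and -0.19 and Tcf21 by -0.18 and -0.09. Dcn differed by 0.01 and 0.03, Dpt by 0.03 and 0.13, and Lum by 0.30 in both. The part of these cells in the differences of the integrin chains was not tested.

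Of the 4 intracellular proteins that switch integrins on, 1 was called, in MCT + NI mice. Tln1, the ubiquitous talin, had 8.46, 8.32 and 8.48 in MCT + NI mice and 8.53, 8.53 and 8.55 in MCT mice, against 8.33, 8.35 and 8.37 in sham mice. The MCT mice lay above all others, and MCT + NI mouse 617 lay below the sham mice. Tln1 differed from sham by 0.07 (standard error 0.048, adjusted p = 0.474) with MCT + NI and 0.19 (0.048, adjusted p = 0.0561) with MCT. Tln2, the talin that prevails in heart muscle, was the only member that fell: by 0.23 in MCT + NI mice (adjusted p = 0.0479), while in MCT mice the difference was -0.20 (adjusted p = 0.0763). That call was lost in 7 of the 9 fits that left out 1 mouse (615, 617, 619, 641, 644, 624 or 625), with adjusted p up to 0.141. The kindlins Fermt2 and Fermt3, the second of blood cells, were not called and differed by 0.17 and 0.26 with MCT + NI and by 0.07 and 0.45 with MCT.

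Of the proteins that bind actin, filamin A and alpha-actinin 1 rose most. Flna, the actin crosslinker filamin A, had 8.40, 8.17 and 8.46 in MCT + NI mice and 8.65, 8.65 and 8.46 in MCT mice, against 7.48, 7.52 and 7.72 in sham mice. All injected mice were far above the sham mice. The difference was 0.77 (standard error 0.094, adjusted p = 0.00189) with MCT + NI and 1.01 (0.094, adjusted p = 0.000478) with MCT, a fold of 1.70 and 2.02.

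Actn1, the alpha-actinin of non-muscle cells, had 8.07, 7.69 and 7.99 in MCT + NI mice and 8.12, 8.07 and 8.10 in MCT mice, against 7.33, 7.21 and 7.48 in sham mice. The 3 MCT mice lay close together, and MCT + NI mouse 617 was the injected mouse nearest to sham. The difference was 0.57 (standard error 0.1, adjusted p = 0.0103) with MCT + NI and 0.76 (0.1, adjusted p = 0.00256) with MCT, and without MCT + NI mouse 619 the call for MCT + NI was lost (adjusted p = 0.0528). A second, far dimmer probe set of Actn1 showed 0.36 and 0.25, neither called over all rows. Zyx, a protein of actin bundles under tension, differed by 0.22 (adjusted p = 0.12) with MCT + NI and rose by 0.29 with MCT (adjusted p = 0.044), a call kept in 2 of 9 fits without 1 mouse and lost without 615, 619, 640, 644 or any 1 sham mouse (adjusted p up to 0.15). Vcl (vinculin), Vasp, an actin elongation factor, and Tns1 (tensin 1) were not called, and their differences lay between -0.09 and 0.34.

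Of the scaffold proteins, paxillin, Hic-5, integrin-linked kinase and alpha-parvin rose in both injected groups. Pxn, paxillin, had 7.56, 7.49 and 7.54 in MCT + NI mice and 7.63, 7.58 and 7.49 in MCT mice, against 7.24, 7.13 and 7.25 in sham mice, without overlap. The difference was 0.32 (standard error 0.054, adjusted p = 0.00881) with MCT + NI and 0.35 (0.054, adjusted p = 0.00528) with MCT, and the atrial covariate lost both calls (adjusted p = 0.131 with MCT + NI and 0.0662 with MCT). Parva, alpha-parvin, had 8.37, 8.24 and 8.34 in MCT + NI mice and 8.31, 8.33 and 8.30 in MCT mice, against 7.79, 8.01 and 8.12 in sham mice. Sham mouse 620 was the lowest, and the injected mice lay closer together than the sham mice and above all of them.

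The difference of Parva was 0.34 in both comparisons (standard error 0.077, adjusted p = 0.0348 with MCT + NI and 0.0358 with MCT). Each of these calls was lost without mouse 615, 619, 640, 641, 644 or 624, with adjusted p up to 0.124. Ilk, integrin-linked kinase, rose by 0.27 with MCT + NI (adjusted p = 0.0461) and 0.26 with MCT (adjusted p = 0.0478), and these calls were kept in 1 and 2 of the 9 fits without 1 mouse. Without 615, 617, 640, 641 or any 1 sham mouse neither was kept, nor that of MCT + NI without 619 (adjusted p up to 0.165). Lims1, the PINCH protein of the same complex, and Bcar1, the scaffold p130Cas, were not called and differed by 0.06 to 0.22.

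Tgfb1i1 encodes Hic-5, a relative of paxillin that is induced by TGF-beta in other cells, and the study picked it for follow-up from these same arrays, so that its pattern here is not independent evidence. By qRT-PCR in all its samples, the paper reported a significant rise with MCT but no significant effect for the mice on the NI diet. It had 7.78, 7.75 and 7.86 in MCT + NI mice and 7.94, 8.14 and 8.06 in MCT mice, against 7.43, 7.37 and 7.59 in sham mice. The 3 groups did not overlap, and every MCT + NI mouse lay between the sham and the MCT mice. The difference from sham was 0.33 (standard error 0.071, adjusted p = 0.0258) with MCT + NI and 0.58 (0.071, adjusted p = 0.00165) with MCT. The call for MCT + NI was lost without mouse 615, 619, 620 or 624 (adjusted p up to 0.107), and that for MCT was kept in all 9 fits.

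Between MCT + NI and MCT mice, Tgfb1i1 differed by -0.25 (95% interval -0.41 to -0.09, unadjusted p = 0.0064 from limma, adjusted p = 1), and Flna by -0.24 (-0.46 to -0.03, unadjusted p = 0.0291, adjusted p = 1). For Flna, the highest MCT + NI mouse (619) reached the lowest MCT mouse (644), both at 8.46 after rounding, so that these groups overlapped. Tln1 differed by -0.12 (-0.22 to -0.01, unadjusted p = 0.0397, adjusted p = 1), with all 3 MCT + NI mice below all 3 MCT mice. Itgax, CD11c of dendritic cells and some macrophages, had 3.95, 3.61 and 3.92 in MCT + NI mice and 4.34, 3.99 and 4.15 in MCT mice, against 3.82, 3.78 and 3.97 in sham mice. Its difference between MCT + NI and MCT mice was -0.33 (-0.61 to -0.05, unadjusted p = 0.0249, adjusted p = 1), at intensities below the median row of the table (4.76).

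Only the lower value of Tgfb1i1 stayed under an unadjusted p of 0.05 in all 9 fits that left out 1 mouse (0.00359 to 0.0279). Flna lost it without 617, 640 or 641 (up to 0.109), Itgax without 617, 640 or 644 (up to 0.0945), and Tln1 without 617, 640, 641, 644, 624 or 625 (up to 0.13). Tgfb1i1, Tln1 and Itgax were the 3 members whose groups did not overlap, all lower in MCT + NI mice, with 2.96% of all genes lower and 3.11% higher in that way. The 95% intervals of the other members included 0, and over the 39 members the median interval reached 0.19 log2 units to either side of the estimate. It reached 0.10 for Tns1 and 0.73 for Itga4. These intervals are not adjusted over the genes tested, so differences larger than these could also go uncalled with 3 arrays per group.

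**Figure D3:**
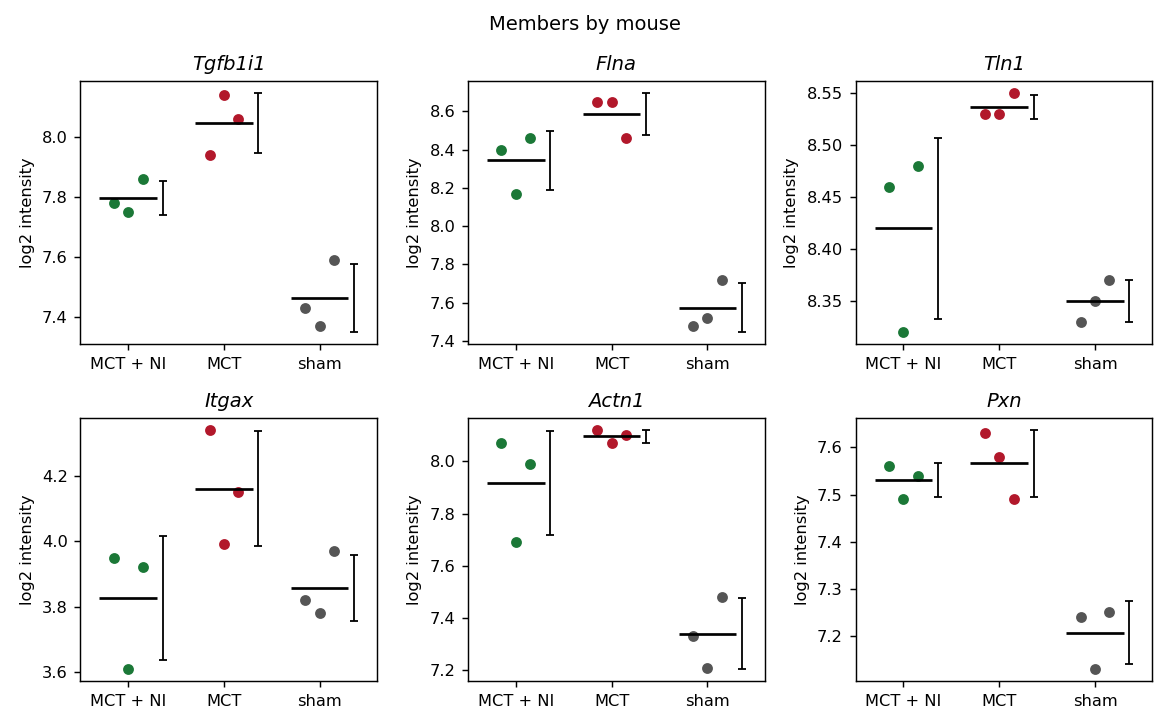
Log2 intensity of 6 members in each mouse (points), with the group mean as a line and the SD as a bar beside it (n = 3 per group), on a vertical scale that differs between panels. Tgfb1i1 in MCT + NI mice lies between MCT and sham mice without overlap, Tln1 and Itgax in MCT + NI mice lie below MCT mice and overlap with sham mice, and Flna in mouse 619 reaches that in mouse 644.

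MCT + NI mouse 617 stood low within its group across the members. It was the lowest of the 3 MCT + NI mice for 30 of the 39 members (76.9%) and the highest for 0, while it was lowest for 33.7% of all genes. Of the MCT mice, 640 was the highest for 22 members (56.4%, against 29% of all genes) and 641 the lowest for 18 (46.2%, against 27.8%). The median of the members above the sham mean was 0.32, 0.16 and 0.33 in MCT + NI mice 615, 617 and 619, and 0.36, 0.26 and 0.29 in MCT mice 640, 641 and 644. Mouse 617 was also the lowest of its group for 7 of 10 endothelial and 7 of 10 macrophage markers, and mouse 641 for 9 of 10 macrophage markers.

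Calls against sham were fewer once the atrial score entered the fit as a covariate. With MCT + NI, 4 of the 14 calls were kept (Itga2, Itga6, Itgb3 and Flna) and 10 lost (Itga1, Itga8, Itga9, Itgb1, Tgfb1i1, Tln2, Pxn, Ilk, Parva and Actn1), with adjusted p of 0.0663 to 0.406. With MCT, 8 of the 16 were kept (Itga2, Itga5, Itga6, Itgb1, Itgb3, Tgfb1i1, Flna and Actn1) and 8 lost (Itga1, Itga8, Itga9, Itgam, Zyx, Pxn, Ilk and Parva), with adjusted p of 0.0597 to 0.324, while Itga10 was gained (0.58, adjusted p = 0.0241). The median differences of the 39 members in this fit were 0.27 with MCT + NI and 0.32 with MCT. Over all genes it called 401 with MCT + NI and 506 with MCT, against 1179 in either comparison without the covariate. A lost call was not always a smaller difference. Among the 8 lost with MCT, Itga8 (0.53 to 0.57), Zyx (0.29 to 0.37), Parva (0.34 to 0.36) and Itgam (0.75 to 0.76) did not shrink. Itga1 (0.40 to 0.32), Itga9 (0.49 to 0.46), Pxn (0.35 to 0.31) and Ilk (0.26 to 0.16) did. The score was lower in most injected mice than in the sham mice, so this fit cannot separate it from the groups. The part of atrial transcripts in the differences was not tested.

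**Figure D4:**
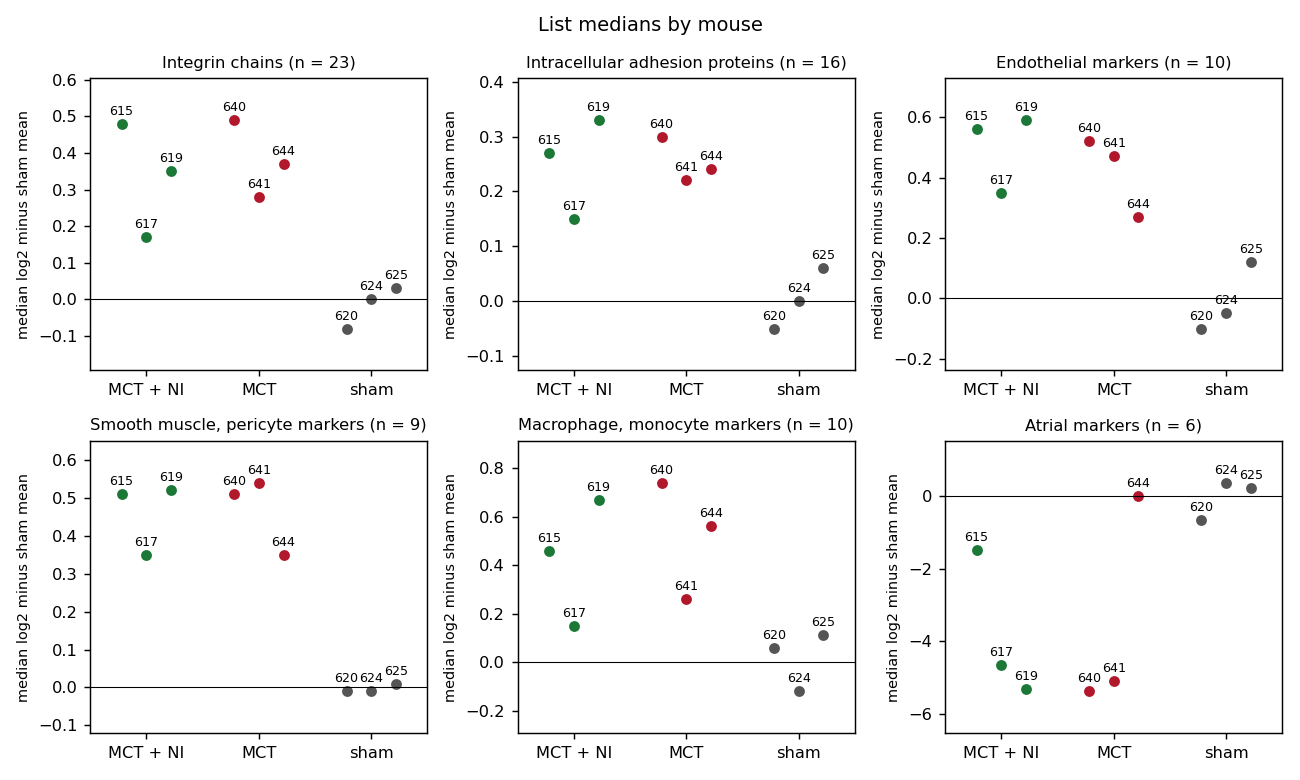
Median over each list of the log2 intensity minus the sham mean, by mouse (points labelled with the mouse number), for the integrin chains, the intracellular proteins and 4 lists of cell markers, on a vertical scale that differs between panels. Both member lists are above all sham mice in every MCT + NI and MCT mouse and, among these injected mice, lowest in mouse 617, whereas the atrial markers of mouse 644 are at sham level.

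Partners of the members on either side of the membrane were read from 2 further lists, also chosen with earlier results of these data known. Of 48 further measured proteins of adhesion sites, 13 rose and 1 fell in MCT + NI mice and 14 rose and 0 fell in MCT mice. Beside this list and the ligands below, 4.52% of all genes rose and 1.75% fell with MCT + NI, and 4.65% and 1.61% with MCT. The 4 with the smallest p in MCT mice were Ddr2, a collagen receptor kinase (0.32 with MCT + NI and 0.49 with MCT), Ptpn12, a phosphatase that acts on p130Cas (0.33 and 0.43), Lpp, a relative of zyxin (0.30 and 0.43), and Tes, a further zyxin partner (0.64 and 0.68), all called in both injected groups. With NI, 3 of the 48 had lower values than with MCT alone at the unadjusted threshold, Ddr2 (-0.17) and Lpp (-0.14) included.

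Of 28 measured integrin ligands, 14 rose and 0 fell in MCT + NI mice and 15 rose and 0 fell in MCT mice, with a median difference of 0.55 and 0.58. Thbs1, thrombospondin 1, had 8.16, 8.18 and 8.02 in MCT + NI mice and 8.49, 8.09 and 8.31 in MCT mice, against 5.12, 4.96 and 5.20 in sham mice. Its difference was 3.03 (adjusted p = 4.49e-06) and 3.20 (adjusted p = 2.73e-06), and the sham mice lay far below all injected mice. Col4a1, a collagen of basement membranes, rose by 1.74 and 1.78, Vtn, vitronectin, by 1.56 and 1.39, and Icam2, the endothelial ligand of LFA-1, by 1.06 and 0.93. No ligand was called between MCT + NI and MCT mice, and 1 was lower at an unadjusted p under 0.05.

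Promoters were searched because several members rose together and because 3 motifs are known from genes that answer to tension: the CArG box of serum response factor, CATTCC of TEAD factors and TGANTCA of AP-1. RefSeq promoter windows (mouse GRCm38.p6, the 250 bases before each start, both strands) were at hand for 30 of the 41 members, as 36 windows. The CArG box was in 3 of the 36 (8.33%, against 1.39% of 21262 windows of all genes), CATTCC in 5 (13.9%, against 11.7%) and TGANTCA in 3 (8.33%, against 6.13%). The CArG boxes were those of Vcl, Fermt2 and Itgb6, none of which was called. CATTCC was in Flna and Itgb1, which rose, in Itga10 and Vcl, which were not called, and in Actn4, which was not analysed. TGANTCA was in Zyx, which rose in MCT mice, in Itgax, which was not called against sham, and in Actn4. The lines give the CArG boxes and 1 match from each called member, 6 stretches in all, 5′ to 3′ in the direction of the gene, with the match in capitals, and a match is a description of letters only.
Flna, chrX:74246665-74246690, minus strand: cgttgtggggCATTCCaacgggaggg
Itgb1, chr8:128685637-128685653, plus strand: gcggcgcggaGGAATGc
Zyx, chr6:42349697-42349723, plus strand: gtgcggacagTGAGTCAgttctccagc
Vcl, chr14:20929161-20929190, plus strand: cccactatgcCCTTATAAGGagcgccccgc
Fermt2, chr14:45530250-45530279, minus strand: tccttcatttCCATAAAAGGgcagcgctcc
Itgb6, chr2:60673724-60673753, minus strand: cacctgacttCCTTATAAGGtgaatgagga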

How the data were processed

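The deposited values are log2 intensities that the authors obtained with robust multi-array analysis (RMA, no version in the submitters' processing notes). RMA corrects the background, gives the arrays 1 distribution and summarises each probe set. Although the methods speak of Entrez-based probe sets, the 35556 deposited rows carry the numbers of the manufacturer. Of these rows 21218 were annotated to 1 gene, 1881 to several and 12457 to none in the annotation used. The brightest probe set stood for each of 1386 genes with several, which left 18820 genes. Array medians lay between 4.766 and 4.795. Exact ties between arrays are frequent: 12042 genes, 13 of them members, have 1 value in at least 2 mice. Scan dates and batches are not given in the sources used here. The methods and the labels differ on the RNA kit and on whether the diets began 1 or 2 weeks before the injections.

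Group means of the 9 arrays were fitted with limma 3.58.1 (R 4.3.3), whose empirical Bayes step followed the intensity as in the methods. P-values are two-sided and were adjusted by Benjamini-Hochberg. The procedure was tested on simulated data. Each array is a separate mouse, and precision is limited by having 3 per group.

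The members and all lists were chosen with earlier results of these data known. Values in every mouse are given for members called against sham with a log2 difference of at least 0.3 in size, for members that passed 0.05 without adjustment between MCT + NI and MCT, and for Tgfb1i1. Of each other list up to 4 genes with the smallest p in MCT against sham are named, and any cell marker. Promoter stretches are from RefSeq.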

Additional observations from a re-analysis of the deposited data

How the results depend on the processing

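Of the 16 members called in MCT against sham mice, 9 kept their call in all 9 fits that left out 1 mouse (Actn1, Flna, Itga2, Itga6, Itga9, Itgb1, Itgb3, Pxn and Tgfb1i1, of which Itga9 and Pxn lost it with the atrial score as a covariate), and of the 14 in MCT + NI against sham mice 8 did. Flna, Itga2, Itga6 and Itgb3 kept theirs in both comparisons under every setting run, and Tgfb1i1 in MCT mice only. None of these called differences changed its sign in any fit. The differences that were not called did so in 8 of 522 values for MCT + NI against sham (4 members), 9 of 480 for MCT against sham (6 members) and 63 of 733 for MCT + NI against MCT (21 members), none of them past the threshold on the other side. Some fits brought further members past it: Itga5, Itgam, Vasp and Vcl for MCT + NI against sham, and Itga10, Itga11, Itgb2, Tln1, Tln2 and Vasp for MCT against sham. Leaving out 1 mouse gave 9 to 14 calls for MCT + NI (9 without MCT + NI mouse 619 or sham mouse 624) and 10 to 16 for MCT (10 without MCT mouse 640 or sham mouse 624). For MCT + NI against sham, the count was 8 in a fit of these 2 groups alone, 9 over all rows of the table, 8 without MCT mouse 644 and MCT + NI mouse 615, 4 with the atrial score as a covariate and 23 at the methods' unadjusted threshold. For MCT against sham it was 9 with the atrial score and 26 unadjusted. The cause was not tested. For MCT + NI against MCT no member was called in any fit, and the 4 at the unadjusted threshold became 1 without mouse 617, 2 without 641 or 644, and 7 without 615. No paired analysis was possible because the mouse numbers are not shared between groups.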
